A study of Mus musculus with 6 samples.

Results

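Inflammasomes are cytosolic protein platforms that turn a danger signal into inflammation and lytic cell death. A sensor protein recruits the adaptor ASC (encoded by Pycard), ASC clusters caspase-1, and caspase-1 matures the cytokines interleukin-1 beta and interleukin-18 and cleaves gasdermin D, whose fragment opens pores in the plasma membrane. A non-canonical branch runs through caspase-11 (encoded by Casp4 in the mouse), which cleaves gasdermin D directly, and NINJ1 then ruptures the membrane of the dying cell. In macrophages that meet Candida albicans, the NLRP3 inflammasome is known for its part in interleukin-1 beta release, and transcription of Nlrp3 is raised by inflammatory signals in a step called priming.

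The genes described here are 10 genes of this pathway, found by their symbols in the deposited expression table, out of 54532 genes in all. By role they are the sensors Nlrp3, Nlrc4, Aim2 and Nlrp1b, the NLRP3 partner kinase gene Nek7, the adaptor gene Pycard, the caspase genes Casp1 and Casp4, the pore gene Gsdmd and the membrane rupture gene Ninj1. Of these, 9 averaged 1 FPKM or more and were tested among 9867 genes, and Nlrp1b was below that level. The samples were 6 RNA-seq libraries of primary macrophages from wild-type (WT) mice, 3 pretreated with vehicle and 3 with rmMETRNL, which the labels name for the secreted protein METRNL (meteorin-like). All 6 met Candida albicans for 6 h after a pretreatment of 6 h, so the comparison is between pretreatments and holds no sample without the fungus. The labels do not give the age of the mice, the organ the cells came from, or whether each group holds 3 animals or 3 dishes of the same cells. The p-values therefore speak only of the spread among these libraries, part or all of which may be technical. The columns of the table carry letters that the labels do not spell out. They were read as vehicle and rmMETRNL, and each direction below rests on that reading.

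The libraries held 13235001 to 18145733 reads (or read pairs) recovered from the FPKM values (fragments per kilobase of gene, scaled by library size). All 10 macrophage markers passed the level tested and limma called 0 of them, while in 6 the groups did not overlap (60.0%, beside 21.5% of all tested genes), 3 higher and 3 lower with rmMETRNL. The smallest p of the 10 was that of Cd14, at 2647 ± 62.0 and 2298 ± 53.4 FPKM, with an adjusted p of 0.189 in limma and 0.0466 in voom. The extraction protocol names retinas, whereas 5 retina markers summed to 0.387 to 0.711 FPKM per library. Markers of neutrophils, which also use this pathway, summed to 113 to 120 FPKM with vehicle and 123 to 132 FPKM with rmMETRNL, most of it from S100a8 and S100a9. Retnlg had 5.09 to 7.57 FPKM. The other 7 neutrophil markers averaged under 1 FPKM in both groups, with Elane at 0 in all libraries and Ly6g at 0.135 to 0.490 FPKM. S100a9 stood at 24.41 ± 0.781 (vehicle) and 34.78 ± 3.56 FPKM (rmMETRNL), without overlap (adjusted p = 0.151 in limma and 0.0581 in voom). The groups overlapped for S100a8, at 83.66 ± 4.59 and 86.08 ± 0.564 FPKM, and for Retnlg, at 6.575 ± 1.31 and 6.49 ± 0.654 FPKM. Lymphocyte markers of the T and NK cell list summed to 67.4 to 74.9 and 75.8 to 82.5 FPKM, most of it Il7r. Il7r alone had 68.87 ± 3.43 and 74.67 ± 3.26 FPKM, with overlapping groups. Of the 8 markers in this list only Il7r and Trac averaged 1 FPKM or more over the 6 libraries. Trac had 1.016 ± 0.651 and 2.01 ± 1.03 FPKM, with overlapping groups. B cell markers summed to 17.3 to 22.0 (vehicle) and 18.5 to 21.2 FPKM (rmMETRNL), and mast cell markers to 9.97 to 16.3 and 13.0 to 16.5 FPKM. Fibroblast and mesothelium markers summed to 7.24 to 7.81 and 7.24 to 7.52 FPKM, and dendritic cell markers to 1.41 to 1.76 and 1.71 to 1.85 FPKM. The part of these cell type lists in the differences below was not tested.

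Upstream sequence is shown for Nlrp3 and Casp4, the members whose 2 groups of libraries did not overlap, and for Casp1, which lies beside Casp4 on chromosome 9 and is transcribed in the same direction. Each line gives the 250 bases before the RefSeq start (GRCm38.p6, all on the plus strand), 5′ to 3′. Capitals mark matches on either strand to the kappaB consensus, an element bound by NF-kappaB, or to ACGTG, the core of the hypoxia response element.
Nlrp3, chr11:59541319-59541568: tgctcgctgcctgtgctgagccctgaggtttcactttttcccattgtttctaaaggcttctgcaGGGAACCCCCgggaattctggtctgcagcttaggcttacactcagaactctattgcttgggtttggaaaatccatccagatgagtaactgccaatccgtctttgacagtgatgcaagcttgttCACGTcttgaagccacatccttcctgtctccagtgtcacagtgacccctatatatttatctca
Casp4, chr9:5308599-5308848: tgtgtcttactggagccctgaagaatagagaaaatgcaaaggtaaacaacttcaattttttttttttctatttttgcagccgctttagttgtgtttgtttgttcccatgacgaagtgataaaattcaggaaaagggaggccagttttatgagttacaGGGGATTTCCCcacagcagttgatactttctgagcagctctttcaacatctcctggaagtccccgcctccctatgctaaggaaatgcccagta
Casp1, chr9:5298267-5298516: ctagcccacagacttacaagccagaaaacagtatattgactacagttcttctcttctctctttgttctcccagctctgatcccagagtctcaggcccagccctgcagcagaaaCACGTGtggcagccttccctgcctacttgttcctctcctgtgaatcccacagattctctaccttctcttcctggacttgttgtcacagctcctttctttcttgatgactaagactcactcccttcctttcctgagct

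The Nlrp3 window held 1 kappaB match, at 186 to 177 bases before the start, and 1 ACGTG match on the minus strand. In the Casp4 window 2 overlapping kappaB matches together formed the run GGGGATTTCCC, and the Casp1 window held ACGTG on both strands at overlapping positions and no kappaB match. Among 32851 such windows in the RefSeq table, 3.9% held a kappaB match and 16.6% held ACGTG. Windows were found for 9 of the 10 genes, and those of Aim2, Nek7, Ninj1, Nlrc4, Nlrp1b and Pycard held no match to either, nor to the AP-1 element TGANTCA (6.75% of windows), the GAS element TTCNNNGAA (7.02%) or the core of the interferon-stimulated response element (2.98%). Nlrp3 and Casp4 each have a second RefSeq start, and for Nlrp3 the window of that start held no match. These matches describe letters in a window and were not tested for binding or effect.

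The comparison asked whether transcripts of this pathway differ between rmMETRNL and vehicle pretreatment in macrophages that then met the fungus. Nlrp3 and Casp4 were slightly higher in all 3 rmMETRNL libraries than in any vehicle library, by 1.14-fold and 1.17-fold. The other 7 tested genes overlapped between groups, and the transcripts of gasdermin D and NINJ1 had nearly equal means. No member passed the threshold, an adjusted p of 0.05 with the whole table in the adjustment. With log2(FPKM + 1) values limma called 0 of the 9, beside a background of 0.0% of all genes, and limma voom on the recovered reads also called 0 of the 9, beside 0.618% (61 genes). At an unadjusted p under 0.05 limma held 2 of the 9, both higher, where 14.7% of all tested genes did so (7.54% higher and 7.13% lower). Groups that did not overlap were found in 2 of the 9 (22.2%), close to the 21.5% of all tested genes (10.9% higher and 10.6% lower). The median log2 fold change of the 9 was 0.02, against -0.0056 over all genes, with 5 positive (55.6%, beside 48.4%) and 4 negative. In bulk RNA a difference in the number of cells of a type and a difference in RNA per cell cannot be told apart.

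**Figure D1:**
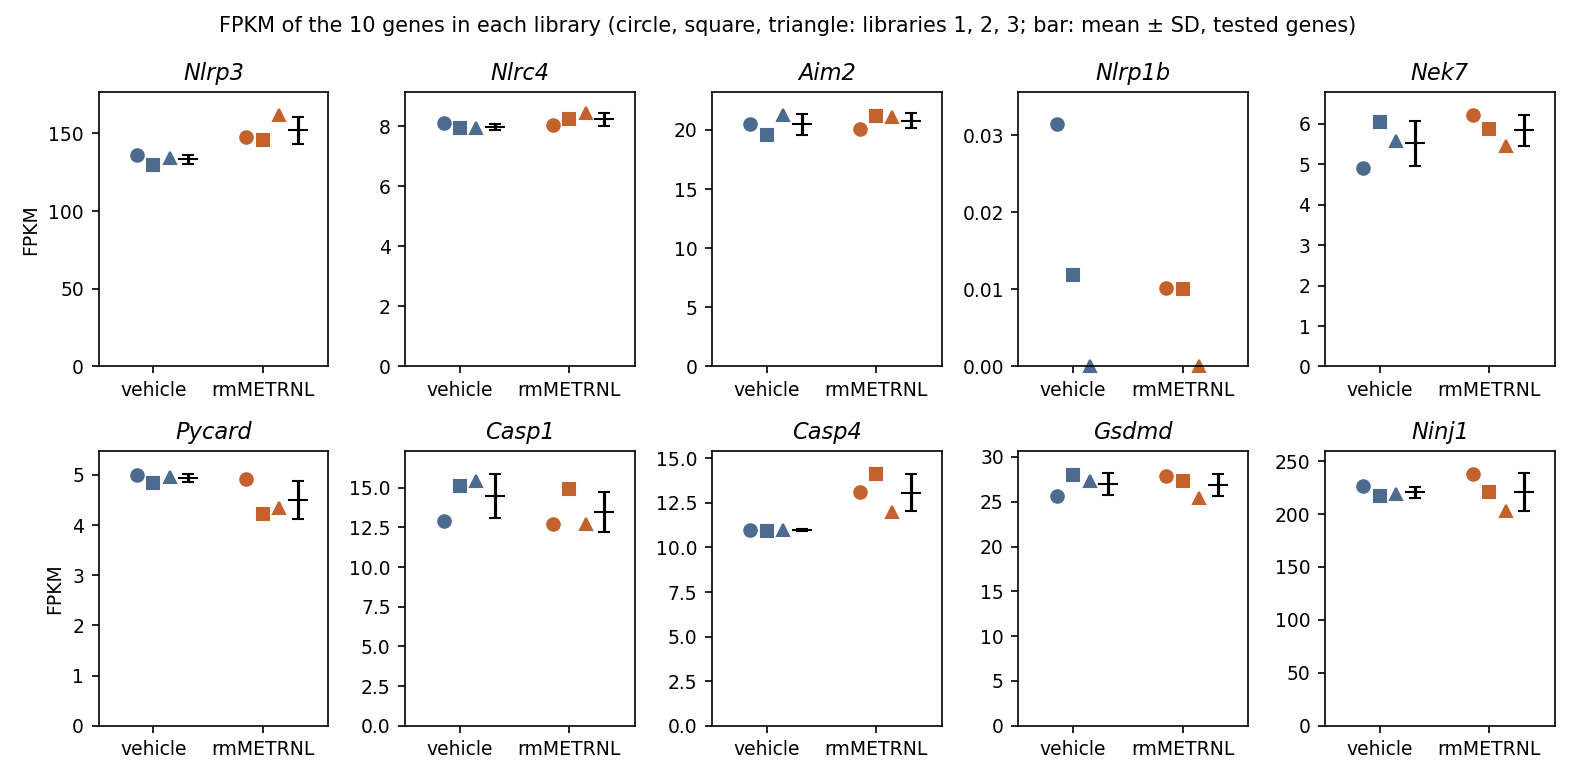
FPKM (y axis, from 0) of each of the 10 genes in the 3 vehicle and 3 rmMETRNL libraries, with 1 symbol per library and the mean ± SD of each group beside it (no bar for Nlrp1b, which rests on 0 to 3 reads per library). The 2 groups are apart only for Nlrp3 and Casp4. The 3 vehicle values of Casp4 lie almost on top of each other, closer than counting error alone would place them.

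Among the sensors, Nlrp3 (ENSMUSG00000032691, chromosome 11, 59541568 to 59566956, plus strand, GRCm38) was the most abundant in FPKM. NLRP3 responds to potassium efflux and other signs of cell damage. Vehicle libraries 1, 2 and 3 had 136, 130 and 134 FPKM, and rmMETRNL libraries 1, 2 and 3 had 148, 146 and 162 FPKM. All 3 rmMETRNL values lay above the vehicle values, with a gap of 9.26 FPKM between the nearest libraries, and rmMETRNL library 3 was the highest. The group levels were 133.4 ± 2.98 FPKM with vehicle and 152.0 ± 8.82 FPKM with rmMETRNL (mean ± SD, n = 3, as for all such values below). Behind these values stand 7072 to 9864 reads per library. The log2 fold change on the log2(FPKM + 1) scale was 0.19 (SE 0.05, 95% interval 0.06 to 0.31), with an unadjusted p of 0.0102 and an adjusted p of 0.244 in limma and 0.139 in voom. Of all tested genes, 80.0% had a smaller change in size.

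RmMETRNL library 3 had a stronger trend of its deviations with gene length (Spearman 0.313 across genes) than the other 5 libraries (-0.168 to -0.021), and Nlrp3 was highest there. Without that library the log2 fold change of Nlrp3 was 0.14, and with each library's length trend removed it was 0.19. Both fits kept the sign, and neither passed (adjusted p = 0.424 and 0.220 in limma). As the groups did not overlap, leaving out a library could not turn the sign.

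Nlrc4 (ENSMUSG00000039193, chromosome 17, 74425438 to 74459142, minus strand) encodes the sensor that joins NAIP proteins bound to bacterial flagellin or secretion needles. It stood at 8.11, 7.93 and 7.93 FPKM with vehicle and 8.03, 8.23 and 8.44 FPKM with rmMETRNL. The groups overlapped, with 2 of 3 rmMETRNL libraries above the vehicle range, and the log2 fold change was 0.04 (95% interval -0.08 to 0.15). Aim2 (ENSMUSG00000037860, chromosome 1, 173350879 to 173466040, plus strand), whose product senses DNA in the cytosol, had 20.5, 19.6 and 21.3 FPKM with vehicle and 20.1, 21.2 and 21.1 FPKM with rmMETRNL. All 3 rmMETRNL values of Aim2 fell inside the vehicle range, and its log2 fold change was 0.02 (95% interval -0.10 to 0.15). As folds, the intervals run from 0.948 to 1.11 for Nlrc4 and from 0.933 to 1.11 for Aim2.

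Nlrp1b (ENSMUSG00000070390, chromosome 11, 71153102 to 71230733, minus strand), which encodes a sensor activated by proteases such as anthrax lethal factor, was barely detected. It had 3, 1 and 0 reads in vehicle libraries 1, 2 and 3, and rmMETRNL libraries 1, 2 and 3 held 1, 1 and 0. A count of 0 allows up to 3 reads, or 0.0261 to 0.0356 FPKM for this gene, for counting error only, so both groups were at this limit and no fold change is given. Of the words of 31 bases in its longest transcript, 6.48% occur in other genes, most of them in its neighbour Nlrp1a.

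Nek7 (ENSMUSG00000026393, chromosome 1, 138482875 to 138620141, minus strand), the kinase that binds NLRP3 and is needed for its assembly, stood at 4.92, 6.04 and 5.59 FPKM with vehicle and 6.21, 5.87 and 5.45 FPKM with rmMETRNL. Its vehicle libraries spanned most of the range of both groups, with a coefficient of variation of 10.2%, and 1 rmMETRNL library exceeded them. The log2 fold change was 0.07 (SE 0.08, 95% interval -0.13 to 0.27). Without vehicle library 1, its lowest, the value was 0.004, and without vehicle library 2 it was 0.13.

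The adaptor gene Pycard (ENSMUSG00000030793, chromosome 7, 127989708 to 127993867, minus strand) had the lowest level of the 9 tested members on the exon lengths of the table. Vehicle libraries 1, 2 and 3 had 5.00, 4.84 and 4.97 FPKM and rmMETRNL libraries 1, 2 and 3 had 4.93, 4.23 and 4.35 FPKM. In 2 of 3 rmMETRNL libraries it lay below the vehicle range and in library 1 within it. The log2 fold change was -0.11 (SE 0.07, 95% interval -0.27 to 0.05, adjusted p = 0.484 in limma), opposite in sign to Nlrp3, and it was -0.17 without rmMETRNL library 1 and -0.08 without rmMETRNL library 2.

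How low Pycard stands depends on the gene model. The table divides its 245 to 344 reads per library by an exon length of 3800 bases, longer than the whole RefSeq gene with its introns (2495 bases, 127991373 to 127993867). Reads confined to the RefSeq model would correspond to at least 7.19 FPKM in place of 4.72. The model of the table also shares 12.8% of its exon bases with Gm45205 on the opposite strand, and without a stated strand setting the reads of the pair cannot be told apart.

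Casp1 and Casp4 are neighbours on chromosome 9 and encode the canonical and the non-canonical inflammatory caspase. Casp4 (ENSMUSG00000033538, 5308828 to 5336783, plus strand) stood at 11.0, 10.9 and 11.0 FPKM in vehicle libraries 1, 2 and 3. In rmMETRNL libraries 1, 2 and 3 it stood at 13.1, 14.1 and 12.0 FPKM. All rmMETRNL values lay above all vehicle values, by at least 1.0 FPKM. The vehicle libraries differed by less than in any other member (coefficient of variation 0.289%), while the rmMETRNL libraries spread by 7.93%. Counting error at 543 to 741 reads per vehicle library is larger than that vehicle spread. The closeness of the 3 vehicle values is therefore no measure of how stable Casp4 is. Group levels were 10.98 ± 0.0317 and 13.06 ± 1.04 FPKM from 543 to 820 reads per library. The log2 fold change of 0.23 (SE 0.06, 95% interval 0.08 to 0.38, adjusted p = 0.243 in limma and 0.161 in voom) was the largest among the members. Leaving out rmMETRNL library 2 gave 0.18 and leaving out rmMETRNL library 3 gave 0.28.

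Casp1 (ENSMUSG00000025888, 5298517 to 5307265, plus strand) did not share this difference in sign. It had 12.9, 15.1 and 15.4 FPKM with vehicle and 12.7, 14.9 and 12.7 FPKM with rmMETRNL. In 2 of 3 rmMETRNL libraries, 1 and 3, it lay just below vehicle library 1, the lowest of its group, and rmMETRNL library 2 lay within the vehicle range. The log2 fold change was -0.10 (SE 0.09, 95% interval -0.31 to 0.12, adjusted p = 0.662 in limma). No word of 31 bases of the longest Casp1 or Casp4 transcript occurs in another gene.

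A pair of ratios, chosen after their values were seen, describe this split without the scaling of each library. Casp4 relative to Casp1 was 0.852, 0.723 and 0.714 with vehicle (libraries 1 to 3) and 1.03, 0.943 and 0.942 with rmMETRNL. Nlrp3 relative to Pycard was 27.3, 26.9 and 26.9 with vehicle and 30.1, 34.5 and 37.3 with rmMETRNL. Neither ratio overlapped between groups, which setting a member without overlap against one with a negative fold change made likely. No test is given, as the pairs were picked for these differences.

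**Figure D2:**
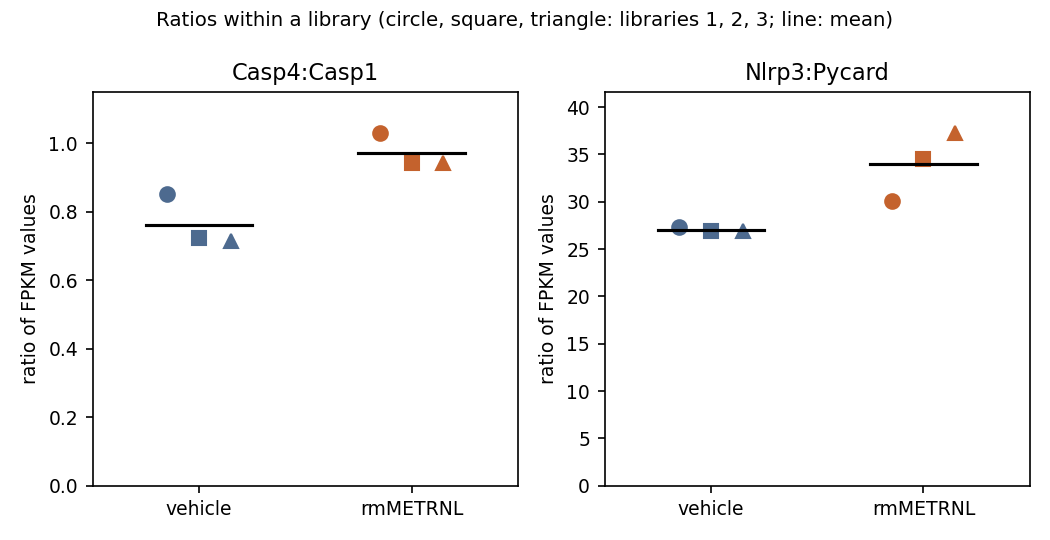
Ratio of the FPKM values of Casp4 to Casp1 (left) and of Nlrp3 to Pycard (right) within each library (y axes from 0), with 1 symbol per library and a line at the group mean. Casp4:Casp1 had a mean of 0.763 with vehicle and 0.971 with rmMETRNL, and Nlrp3:Pycard 27.0 and 34.0. Both pairs were picked for these differences after their values were seen.

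The genes that carry out the lysis had equal group levels within their spread. Gsdmd (ENSMUSG00000022575, chromosome 15, 75862327 to 75867408, plus strand) stood at 25.6, 28.0 and 27.3 FPKM with vehicle and 27.9, 27.3 and 25.4 FPKM with rmMETRNL. Its means were 26.97 ± 1.26 and 26.87 ± 1.27 FPKM, a log2 fold change of -0.005 (95% interval -0.14 to 0.13). Ninj1 (ENSMUSG00000037966, chromosome 13, 49187485 to 49196244, plus strand) had 227, 217 and 219 FPKM with vehicle and 238, 221 and 203 FPKM with rmMETRNL. The highest and the lowest Ninj1 values were both in rmMETRNL libraries, and the means were 220.8 ± 5.19 and 220.8 ± 17.6 FPKM (95% interval of the log2 fold change -0.15 to 0.15). The signs of both near-0 values changed with the scaling, with TPM among the settings that made them positive.

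**Figure D3:**
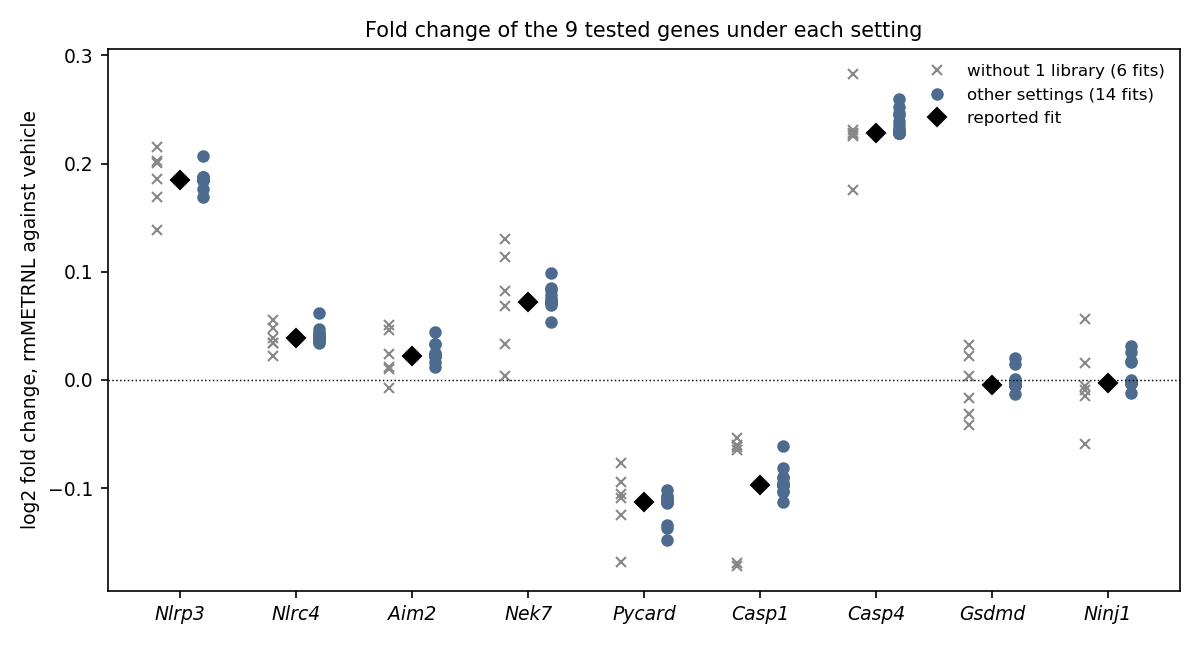
Log2 fold change between rmMETRNL and vehicle (y axis) for the 9 tested genes (x axis), on log2(FPKM + 1) in the reported fit (diamond). Crosses are 6 fits that each leave out 1 library, and circles are 14 other settings, some on other scales (TPM, other pseudocounts, voom). Pycard, which averaged 4.72 FPKM, has no circle for the filter of at least 5 FPKM. Nlrp3 (0.14 to 0.22) and Casp4 (0.18 to 0.28) were positive in all 20 alternatives, and Gsdmd and Ninj1 lay on both sides of 0. For Nlrp3 and Casp4, whose groups did not overlap, leaving out a library could not turn the sign.

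The levels of the members, which FPKM allows to be set side by side per length, spanned a wide range. Ninj1 was highest at a mean of 221 FPKM over the 6 libraries, above 97.8% of tested genes, and Nlrp3 followed at 143 FPKM, above 96.4%. Then came Gsdmd (26.9 FPKM), Aim2 (20.6), Casp1 (14.0), Casp4 (12.0), Nlrc4 (8.11), Nek7 (5.68), Pycard (4.72) and Nlrp1b (0.0106). This order held in all 6 libraries for each pair of neighbours but 2, Casp1 with Casp4 and Nek7 with Pycard, whose order held in 5. Over the 6 libraries Casp1 and Casp4 had SDs of 1.30 and 1.31 FPKM and Nek7 and Pycard 0.466 and 0.342 FPKM, so these neighbours differed by less than their 2 SDs together in the first pair and by little more in the second. The place of Casp4 also rests on its exon length of 3710 bases. On the length of the longest annotated coding transcript of each gene, 1435 bases for Casp4, it stood at 31.1 FPKM, above Aim2 (25.4) and Casp1 (14.0), an alternative chosen after seeing the data. On the shortest annotated coding transcript, an alternative also chosen after seeing the data (676 bases for Nlrp3, 493 for Pycard and 361 for Casp4), Nlrp3 (857 FPKM) stood above Ninj1 (292) and Pycard (36.4) above Casp1 (14.0). The longest coding transcripts of these 3 genes have 4021, 3800 and 1435 bases, and whether the shortest ones are complete was not checked. The order of the members therefore changes with the transcript length used, and which transcripts the reads came from was not analysed here.

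Across the 6 libraries, the genes averaging 5 FPKM or more whose values followed those of Nlrp3 most closely were Tex10 and Ythdf3 (Pearson r 0.997 each), Ss18 (0.996), Slc25a51 (0.995) and Irak3 (0.993), as a description. Of 5381 genes compared, 229 had an r over 0.9, and all points share the same 6 libraries and 2 groups. Among the members, Nlrc4 had 0.87, Casp4 0.57, Aim2 0.38 and Nek7 0.02, while Ninj1, Gsdmd and Casp1 had -0.32, -0.46 and -0.64.

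Around these genes stand others that feed, brake or carry out the pathway, listed by role. Of 65 such genes 63 were in the table and 45 were tested. Limma called 0 of the 45 at an adjusted p of 0.05, with 5 higher and 3 lower at an unadjusted p under 0.05 (17.8%, beside 14.7% of all tested genes). Voom called 1 of the 45, where it called 0.618% of all tested genes. The groups did not overlap in 10 of them, 6 higher and 4 lower with rmMETRNL (22.2% beside 21.5%). The median log2 fold change was -0.004.

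The genes of the cytokines that caspase-1 processes, Il1b and Il18, differed widely in level. Il1b, which encodes interleukin-1 beta, stood at 1590, 1630 and 1640 FPKM with vehicle and 1440, 1630 and 1670 FPKM with rmMETRNL, which spanned the vehicle range on both sides (log2 fold change -0.04, adjusted p = 0.803 in limma). Il18 had 0.799 to 1.16 FPKM with vehicle and 0.371 to 0.981 FPKM with rmMETRNL, from 46 and 32 reads in all, and was below the level tested. Il1a, the interleukin-1 alpha gene and the most abundant of the wider cytokine list, had 1889 ± 98.8 and 2056 ± 126 FPKM (adjusted p = 0.420 in limma). Of the 4 tested genes of this list, which also holds the inhibitors Il1rn and Il18bp, 0 had an unadjusted p under 0.05. Il1a shares 11.2% of its exon bases with Gm14023 on the opposite strand.

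Among other sensors and ligand-binding partners, 1 of 6 tested genes had an unadjusted p under 0.05 (16.7%, beside 14.7% of all tested genes). This was the interferon-inducible DNA-sensing family gene Ifi204 (5.252 ± 0.0699 and 5.891 ± 0.301 FPKM, adjusted p = 0.332 in limma). The NAIP genes, whose products hand bacterial proteins to NLRC4, were led by Naip2 at 19.57 ± 0.970 and 18.87 ± 1.51 FPKM, and Nlrp1a, Nlrp6, Nlrp10, Nlrp12 and Ifi202b were below the level tested. Of 9 tested channels and regulators upstream of NLRP3, 2 had an unadjusted p under 0.05, both higher (22.2%, beside 14.7% of all tested genes). Txnip, which encodes a thioredoxin-binding protein, had 4.65, 4.50 and 4.11 FPKM with vehicle and 4.78, 6.41 and 7.10 FPKM with rmMETRNL, so that the groups were separated by the small gap between vehicle library 1 and rmMETRNL library 1. Its log2 fold change of 0.38 (adjusted p = 0.287 in limma) was 0.27 without rmMETRNL library 3 and 0.52 without rmMETRNL library 1, and 19.4% of its exon bases are shared with Gm15441 on the opposite strand. Lrrc8a, a subunit gene of the volume-regulated anion channel, had 2.645 ± 0.105 and 3.306 ± 0.0558 FPKM, and 68.3% of its exon bases are shared with the model Gm28035, which leaves its value uncertain.

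The list of brakes on inflammasomes also held regulators with other roles, and none of its 7 tested genes had an unadjusted p under 0.05. The most abundant of them, the protease inhibitor gene Serpinb1a, stood at 17.35 ± 0.243 and 17.65 ± 1.06 FPKM. Of the 7 interferon-induced genes for guanylate-binding and IRG proteins, 2 were tested. Guanylate-binding proteins help expose bacterial products to caspase-11, and Gbp2 stood at 2.123 ± 0.639 and 2.876 ± 0.232 FPKM with overlapping groups. The low level of the other 5, under 1 FPKM on average, leaves them untested.

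Among other caspases, adaptors and gasdermins, 8 of 12 genes were tested, 2 with a positive and 6 with a negative fold change. Of all tested genes 48.4% had a positive one. Of the 8, 2 (Mlkl and Casp8) had an unadjusted p under 0.05, both lower, where 14.7% of all tested genes did so. The groups did not overlap in the same 2, where this held for 21.5% of all tested genes. Whether 2 of 8 exceeds these shares was not tested. Mlkl, the pore-forming effector gene of necroptosis, had 12.4, 13.8 and 14.4 FPKM with vehicle and 10.3, 10.4 and 10.8 FPKM with rmMETRNL, without overlap (log2 fold change -0.33, SE 0.07, adjusted p = 0.189 in limma and 0.0656 in voom). Casp8, the initiator caspase gene that can also cleave gasdermins, had 18.3, 18.9 and 21.6 FPKM against 16.0, 17.2 and 17.7 FPKM (log2 fold change -0.19, adjusted p = 0.320 in limma). Gsdme, the gasdermin gene opened by caspase-3, had 0.4128 ± 0.0432 and 0.4274 ± 0.0366 FPKM, below the level tested, and Gsdmc was listed at 0 in all libraries.

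Genes for membrane repair and for gasdermin pore formation downstream of cleavage included the 1 gene of these lists that voom called. Rragc, a Rag GTPase gene of the lysosomal mTORC1 platform, had 55.0, 50.6 and 55.2 FPKM with vehicle and 64.1, 65.2 and 68.5 FPKM with rmMETRNL. Its values lay wholly above those of vehicle, by 0.29 on the log2 scale (SE 0.05), with an adjusted p of 0.173 in limma and 0.0413 in voom. Lamtor1, a gene for the Ragulator complex that anchors the Rag GTPases, went the other way at 26.8, 26.3 and 25.8 FPKM against 22.6, 24.1 and 22.9 FPKM (adjusted p = 0.238 in limma), and shares 18.7% of its exon bases with Lrrc51 on the opposite strand. Vps4b, the ATPase gene that recycles the ESCRT repair machinery, had 32.52 ± 0.958 and 37.54 ± 2.44 FPKM (adjusted p = 0.252 in limma), while its paralogue Vps4a had 8.133 ± 0.709 and 7.409 ± 0.0725 FPKM. Of the 9 genes in this list, 3 had a positive and 6 a negative fold change (33.3% positive, beside 48.4% of all tested genes).

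**Figure D4:**
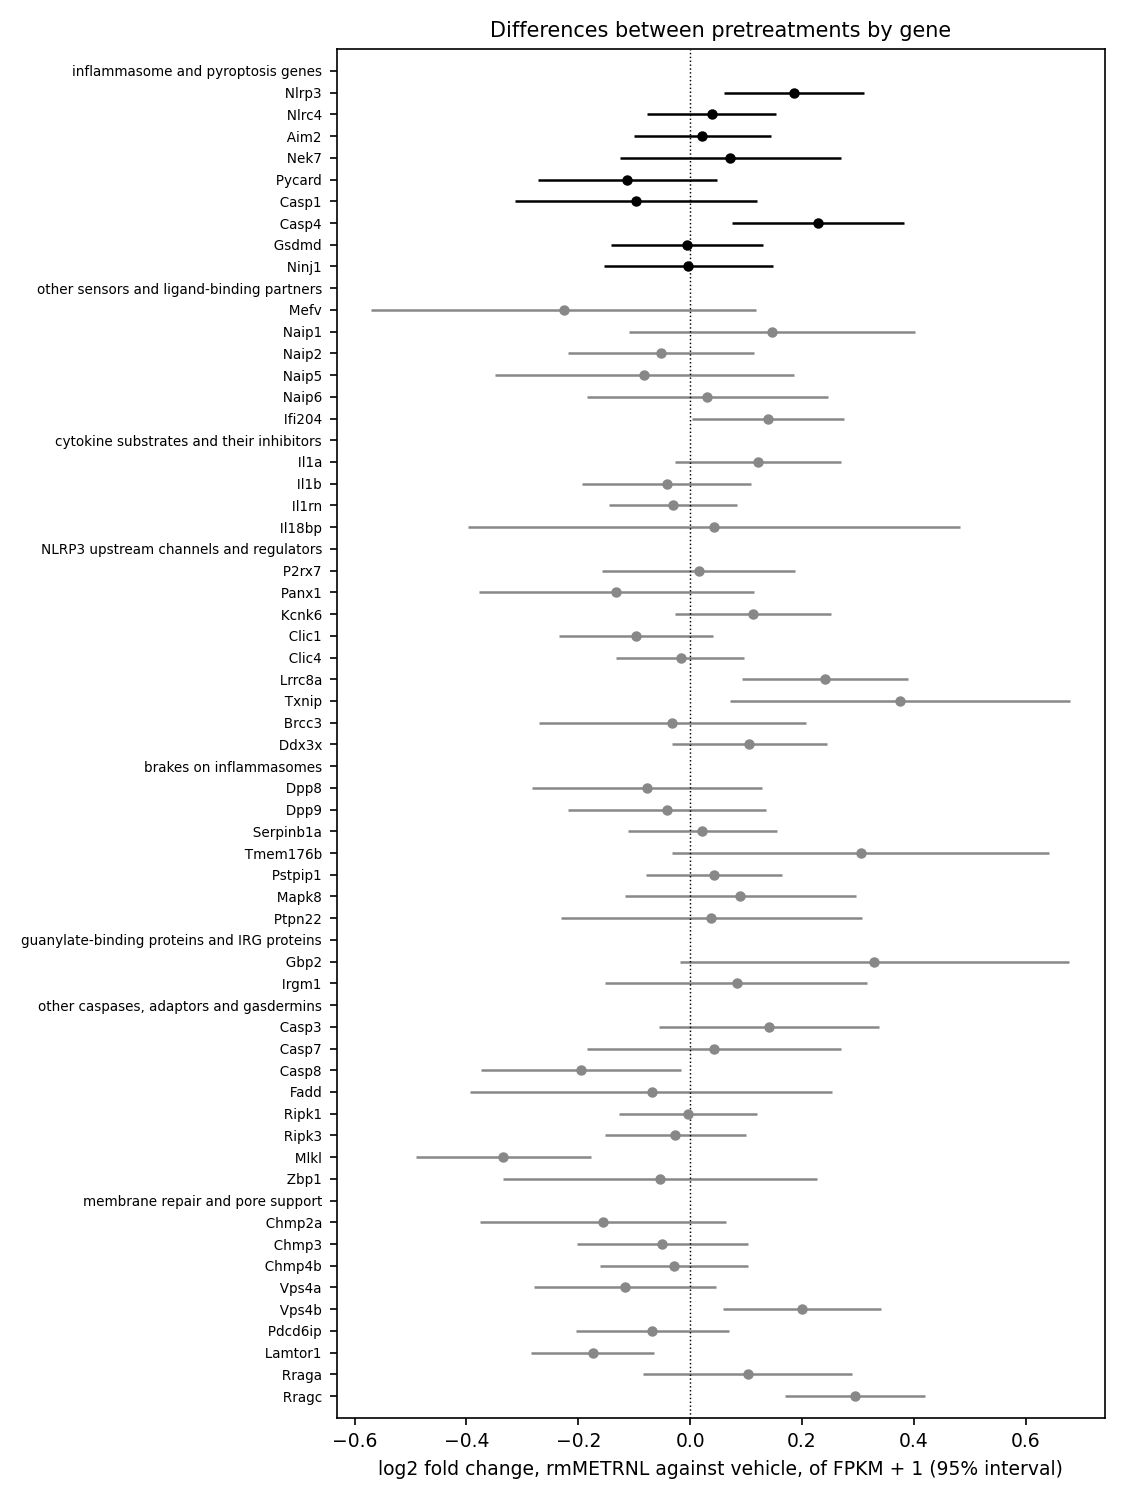
Log2 fold change of log2(FPKM + 1), rmMETRNL against vehicle (x axis), with its 95% interval from limma, for the 9 tested members (black) and 45 other tested pathway genes by role (grey). Nlrp3 and Casp4 have intervals above 0 among the members, and no gene shown passed the adjusted threshold in limma.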

How the data were processed

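RNA was measured in 6 libraries, made with an Illumina TruSeq kit from 1 ug of total RNA per the labels' protocols. The authors deposited FPKM values with the name, position and length of each gene. GRCm38 and mm10 are the builds in the submitters' processing notes. Not given in the sources used here are the aligner, counting tool, annotation release and strand setting. Table coordinates equal GENCODE M21 for 98.3% of 54495 matched genes. In each library FPKM times length moves in equal steps of 1 read, and 100% of values came out whole (tolerance 0.05 reads). At a length of 1 kb, 10 reads are 0.549 to 0.748 FPKM.

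The 9867 genes averaging 1 FPKM or more were tested on log2(FPKM + 1) with limma 3.58.1 (R 4.3.3) and a mean-variance trend. Tests were two-sided, adjusted after Benjamini and Hochberg over all these genes, at a threshold of 0.05. This scale understates changes of low genes. The script was tested on simulated data. The members and lists were chosen with earlier results of these data known. All members are named. Of each other list, genes with an unadjusted p under 0.05 (at most 4) or otherwise the most abundant are named, with Il1b and Il18 always. Gsdme, Gsdmc, Vps4a, Naip2 and the low sensor genes were added after their values were seen. Alternatives were pseudocounts, filters, scalings, variance models, voom, a replicate block and leaving out each library, and, chosen after seeing the data, protein-coding genes only, removal of each library's length trend and transcript lengths. Upstream sequences are from RefSeq. Of the retina markers listed, 2 are not reported here.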

Additional observations from a re-analysis of the deposited data

How the results depend on the processing

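Members called at an adjusted p of 0.05 numbered 0 under all 20 alternatives. Over all genes limma called 0, and the number was 5 with no filter, 1 after rescaling to TPM, 1 with array weights, 1 with robust variance estimation, 6 with protein-coding genes only and 61 in voom. It was 0 in each of 6 fits that leave out a library and 0 at thresholds of 0.01 and 0.1. Of the other pathway genes, voom called 1 (Rragc). Nlrp3 and Casp4 kept their sign and an unadjusted p under 0.05 in all 20, with adjusted p-values of 0.139 to 0.433 and 0.161 to 0.426. Their groups did not overlap, so leaving out a library could not turn either sign. All 20 alternatives reuse the same 6 libraries and are not independent of each other. Signs turned for values near 0. Gsdmd became 0.015 with TPM, 0.001 with array weights, 0.02 without the length trend, and ran from -0.042 to 0.032 on leaving out a library (0.022 without vehicle library 2, 0.004 without vehicle library 3, 0.032 without rmMETRNL library 3). Ninj1 became 0.018 with TPM, 0.026 with quantile normalization, 0.017 with array weights, 0.031 without the length trend, and -0.059 to 0.056 on leaving out a library (0.016 without vehicle library 1, 0.056 without rmMETRNL library 3). Aim2 ran from -0.007 (without vehicle library 2) to 0.051, and Il1b from -0.085 to 0.025 (without rmMETRNL library 1), with 0.015 under quantile normalization. The cause was not tested.

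No pairing of the libraries by the replicate numbers shared between groups was visible. Deviations of same-numbered libraries correlated at -0.021, 0.007 and -0.045, and no library correlated best with its own number. With 3 libraries per group these values cannot show whether equal numbers share an animal. With the replicate block limma called 0 genes, and Nlrp3 and Casp4 had adjusted p-values of 0.311 and 0.312. Depth limits Nlrp1b and Il18.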
